A study of Macaca mulatta with 6 samples.

Results

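The enzymes that assemble triglyceride, and the droplet-associated protein PNPLA3, were followed in rhesus macaque luteal cells after activation of the liver X receptors (LXRs). The 5 genes GPAM, AGPAT2, DGAT1, DGAT2 and PNPLA3 were chosen by symbol. They were read by 8 of the 52766 probe sets tested, with 2 probe sets each for GPAM, DGAT2 and PNPLA3 and 1 each for AGPAT2 and DGAT1. All 5 are among 14132 named genes.

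The source was the corpus luteum, the ovarian gland that secretes progesterone after ovulation, collected 12 days after the LH surge and dispersed to cells. Cultures grew on fibronectin without serum and were exposed for 24 h from plating to 1 µM T0901317, a synthetic LXR agonist, or to 0.1% dimethyl sulfoxide (DMSO), its vehicle. There were 3 arrays per group, and the design text calls the replicates paired. The labels give neither the age of the animals nor the number of animals behind a pair. The culture is a dispersed gland and not a purified cell type, so fewer cells of a type and less RNA per cell cannot be told apart. The series title names LXR target genes in these cells as the question.

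Triglyceride is built on glycerol 3-phosphate. GPAM, the mitochondrial glycerol-3-phosphate acyltransferase, attaches the first fatty acid, AGPAT2 the second, lipin phosphatases remove the phosphate, and DGAT1 or DGAT2 adds the last fatty acid to diacylglycerol. PNPLA3 is a patatin-like phospholipase that sits on lipid droplets and has been assigned lipase and acyl-transfer activities. In mouse and human liver, LXR raises the transcription factor encoded by SREBF1, and GPAM and PNPLA3 are known targets of that factor. Luteal cells keep droplets rich in cholesteryl ester, from which they draw cholesterol for progesterone.

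None of the 5 genes passed the test with T0901317, on any of the 8 probe sets. The 8 log2 changes lay between -0.18 for DGAT1 and 0.093 for the brighter PNPLA3 probe set, and every adjusted p was 1.00 (limma, Benjamini-Hochberg over all probe sets). Over all probe sets 45 passed, or 0.0853%, and 1965 had an unadjusted p under 0.05, or 3.72%. Of the 8 member probe sets, 0 passed and 0 had an unadjusted p under 0.05, so the count does not stand apart from so low a background. The groups did not overlap for 2.45% of all probe sets and for 0 of the 8. On the scale of fold change, the 95% intervals of the 8 probe sets together ran from 0.740 to 1.30, without correction for their number.

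Markers of other cell types of the gland differed between the groups by as much as the members did, also without passing. Of 9 measured endothelial markers 8 lay above 0, with a median change of 0.21, and CDH5, an endothelial cadherin, had 0.39 ± 0.10 (unadjusted p = 0.0026, adjusted p = 0.68, limma). The median level of these markers was 7.04, 7.48 and 6.86 in the T0901317 arrays, against 6.92, 7.11 and 6.40 in the DMSO arrays, higher with T0901317 in each pair. All 4 measured markers of pericytes and smooth muscle lay below 0, with a median change of -0.24, and 2 of them, CNN1 (-0.33 ± 0.10) and CSPG4 (-0.36 ± 0.13), had an unadjusted p under 0.05. Their median level was 8.34, 7.87 and 7.79 in the T0901317 arrays, against 8.73, 7.96 and 7.99 in the DMSO arrays, lower with T0901317 in each pair. Of 9 macrophage markers 2 had an unadjusted p under 0.05, TYROBP (-0.29 ± 0.075) and CSF1R (-0.25 ± 0.11), both lower in all 3 pairs. The median change over the 9 was -0.019, and 3 of them lay above 0. Among the adipocyte, hepatocyte and fibroblast markers 1, SERPINA1, had an unadjusted p under 0.05 (0.27 ± 0.087). None of these lists held a gene past the adjusted threshold. Among all 14132 named genes 5844 lay above 0 and 8288 below 0, and 3.73% had an unadjusted p under 0.05 (limma). The part of cell makeup in the member values was not tested.

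Levels are given as deposited, on the log2 scale. GPAM was the most variable of the genes, and its variation followed the replicate number and not the treatment. Its representative probe set, the brighter one (MmugDNA.33149.1.S1_s_at), had levels of 9.21, 9.54 and 7.48 in the T0901317 arrays of replicates 1, 2 and 3, against 9.21, 9.40 and 7.57 in the DMSO arrays. Both arrays of replicate 3 were low and the groups overlapped almost completely. The change was 0.017 ± 0.093 (log2, limma's SE, n = 3 pairs), with a 95% interval from -0.19 to 0.22, or 0.879-fold to 1.16-fold. The pair differences were 0.0070, 0.14 and -0.097. The s in the probe set's name marks a design that can match more than 1 transcript.

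The other GPAM probe set (MmugDNA.33148.1.S1_at) had 6.94, 7.35 and 5.50 in the T0901317 arrays, against 7.00, 7.79 and 5.08 in the DMSO arrays. It repeated the order of the replicates, with replicate 2 highest and replicate 3 lowest in both groups. The change was -0.021 ± 0.15, with a 95% interval from -0.35 to 0.31. In pairs 2 and 3 it differed by -0.43 and 0.43, and in each of the 3 pairs its sign was opposite to that of the brighter probe set. The treatment difference within a pair was thus not repeated between the probe sets of this gene, while the difference between replicates was.

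**Figure D1:**
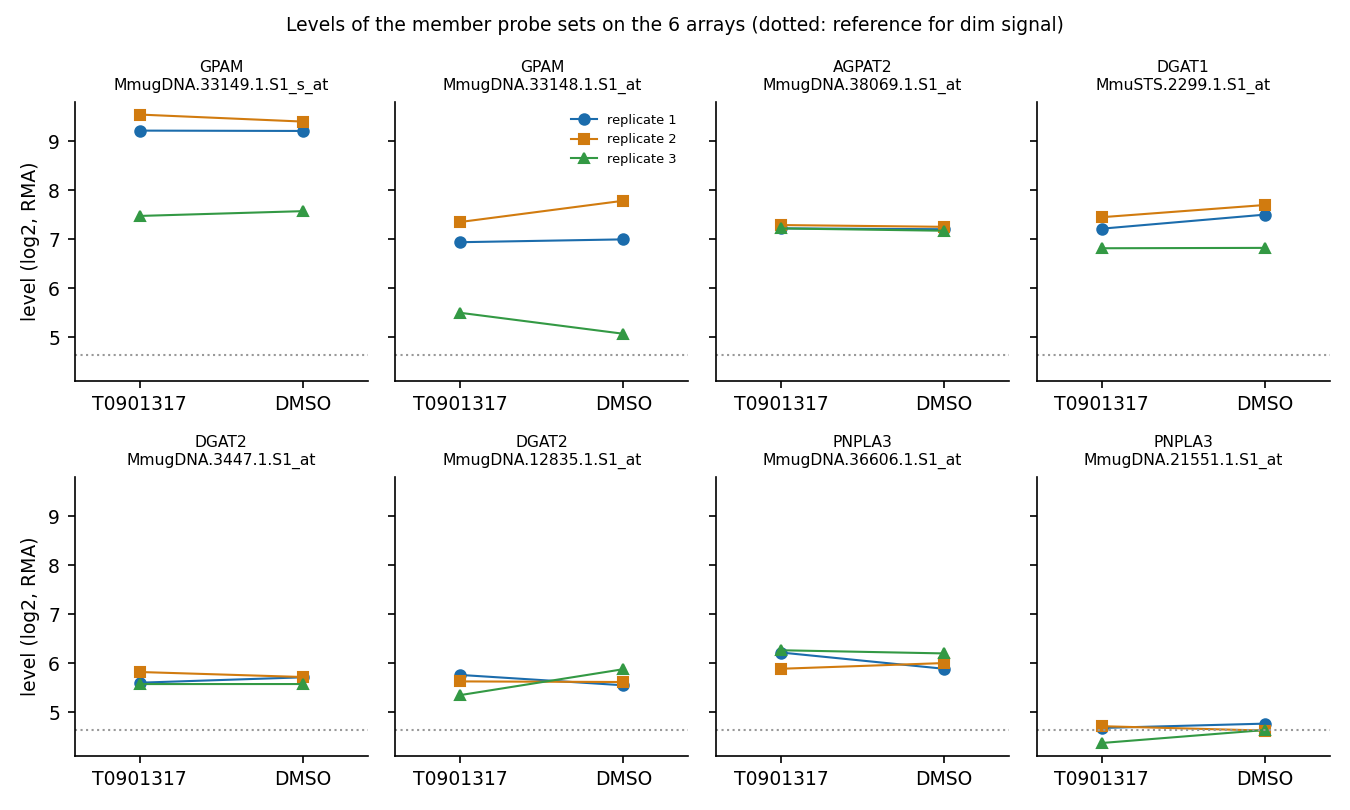
Level (log2, vertical axis, shared by all panels) of each of the 8 probe sets in the T0901317 and DMSO arrays (horizontal axis), with a line joining the 2 arrays of a replicate and 1 array per point. The dotted line is the reference for dim signal, 4.63. GPAM is lowest in replicate 3 in both groups, AGPAT2 lies between 7.17 and 7.29 on all 6 arrays, and the dimmer PNPLA3 probe set lies at the dotted line.

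The means of the 3 replicates spanned 1.95 log2 units for the brighter GPAM probe set and 2.28 for the other, wider than in 98.9% and 99.4% of the other probe sets. A moderated F test between replicates in the same fit, chosen after the values were seen, gave adjusted p = 5.6e-07 and 9.0e-06 for these 2 probe sets (limma). Such differences were common in these cultures, since 40.2% of all probe sets passed that test and 3 of the 8 member probe sets did. Without replicate 3 the span of the brighter probe set was 0.26 (adjusted p = 0.054) and that of the other 0.60 (adjusted p = 1.6e-04).

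RNA quality moved with the replicate number as well. The mean 3′ minus 5′ difference of the actin, GAPDH and EF1a control probe sets was 1.30 in the T0901317 array and 1.89 in the DMSO array of replicate 3, against 0.69 to 1.00 on the other 4 arrays. With this measure as a covariate the span of the brighter GPAM probe set was 2.11 (adjusted p = 1.5e-06) and that of the other 1.58 (adjusted p = 0.0073). The median level of 6 measured fibroblast markers was 8.00 and 7.81 in the T0901317 and DMSO arrays of replicate 3, against 8.54 to 9.28 on the other arrays. The median level of 9 measured endothelial markers was 6.86 and 6.40 there, against 6.92 to 7.48. Its genes did not share this order. TEK and EMCN were lower in replicate 3 than in replicate 1 in both groups, and CLDN5 and TIE1 higher. PECAM1, CDH5, VWF and ERG were lower in replicate 3 only in the DMSO arrays, and KDR only in the T0901317 arrays. The median level of 9 macrophage markers was 8.93 and 8.84 in replicate 3, against 7.03 and 7.09 in replicate 1 and 8.80 and 8.81 in replicate 2. All 6 fibroblast markers and 8 of the 9 endothelial markers were above the reference for dim signal, the exception being KDR. The part of cell makeup in the level of GPAM was not tested.

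AGPAT2, the acyltransferase of the second step, was the steadiest of the 5. Its level was 7.22, 7.29 and 7.22 in the T0901317 arrays, against 7.21, 7.25 and 7.17 in the DMSO arrays. All 3 pair differences were above 0, at 0.018, 0.036 and 0.047, but the groups overlapped. The SD of these differences was 0.015, while limma's SE, which borrows from probe sets of like level, was 0.10. The change was 0.034 with a 95% interval from -0.19 to 0.26. With 3 pairs, the smallest two-sided p of an exact sign-flip test is 0.25, and 23.2% of all probe sets had the same sign in all 3 pairs. The means of the replicates spanned 0.074 log2 units, less than in all but 3.37% of the other probe sets.

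DGAT1, the diacylglycerol acyltransferase of the endoplasmic reticulum, had the largest difference of the 5 genes, and its 3 pairs lay below 0. Its level was 7.22, 7.45 and 6.82 in the T0901317 arrays, against 7.50, 7.70 and 6.83 in the DMSO arrays. The values of the groups overlapped, because replicate 3 was low in both. The pair differences were -0.29, -0.25 and -0.0074, and the change was -0.18 ± 0.11 (0.883-fold, 95% interval 0.747-fold to 1.04-fold, unadjusted p = 0.13 in limma's fit). The absolute t of DGAT1 was above that of 89.6% of the other probe sets. Without replicate 3 the change was -0.27 (unadjusted p = 0.046, adjusted p = 0.78, limma), and with the RNA quality covariate it was -0.24 (unadjusted p = 0.027, adjusted p = 0.55, limma). DGAT1 also differed between replicates, with means that spanned 0.75 log2 units (limma F, adjusted p = 0.0027), but the call was lost without replicate 3 (0.22, adjusted p = 0.36). It was lost too with the RNA quality covariate (0.42, adjusted p = 0.58, limma F). That covariate itself moved with the replicate number, and its fit leaves fewer residual degrees of freedom. The part of RNA quality in this difference was not tested.

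DGAT2, an unrelated enzyme with the same activity, had pairs that did not share a direction. The representative probe set (MmugDNA.3447.1.S1_at) had 5.61, 5.82 and 5.58 in the T0901317 arrays, against 5.72, 5.72 and 5.58 in the DMSO arrays. The pairs differed by -0.11, 0.10 and -0.00041, a change of -0.0026 ± 0.12 with a 95% interval from -0.27 to 0.27. No array of either group stood apart on this probe set. Its other probe set (MmugDNA.12835.1.S1_at) had 5.77, 5.63 and 5.36 in the T0901317 arrays, against 5.55, 5.62 and 5.88 in the DMSO arrays. Its change of -0.10 ± 0.15 came from pair 3, at -0.53, while pairs 1 and 2 had 0.21 and 0.012. Without replicate 3 the value was 0.11.

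The probe sets of PNPLA3 differed from each other in the sign of their pairs. The representative (MmugDNA.36606.1.S1_at) had 6.22, 5.89 and 6.27 in the T0901317 arrays, against 5.89, 6.01 and 6.20 in the DMSO arrays. The groups overlapped, and only replicate 1 differed by more than 0.2, with pair differences of 0.33, -0.12 and 0.064. The change was 0.093 ± 0.13, or 1.07-fold with a 95% interval from 0.877-fold to 1.30-fold. Without replicate 1 it was -0.026.

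The second PNPLA3 probe set (MmugDNA.21551.1.S1_at) had 4.69, 4.72 and 4.38 in the T0901317 arrays, against 4.77, 4.63 and 4.64 in the DMSO arrays. These levels lay at the reference for dim signal of 4.63, which is the 95th percentile of the mean levels of 42 Bacillus control probe sets, and 4 of its 6 values were above it. Its change was -0.087 ± 0.13, and in each of the 3 pairs its sign was opposite to that of the representative. The other 7 member probe sets were above the reference on all 6 arrays.

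**Figure D2:**
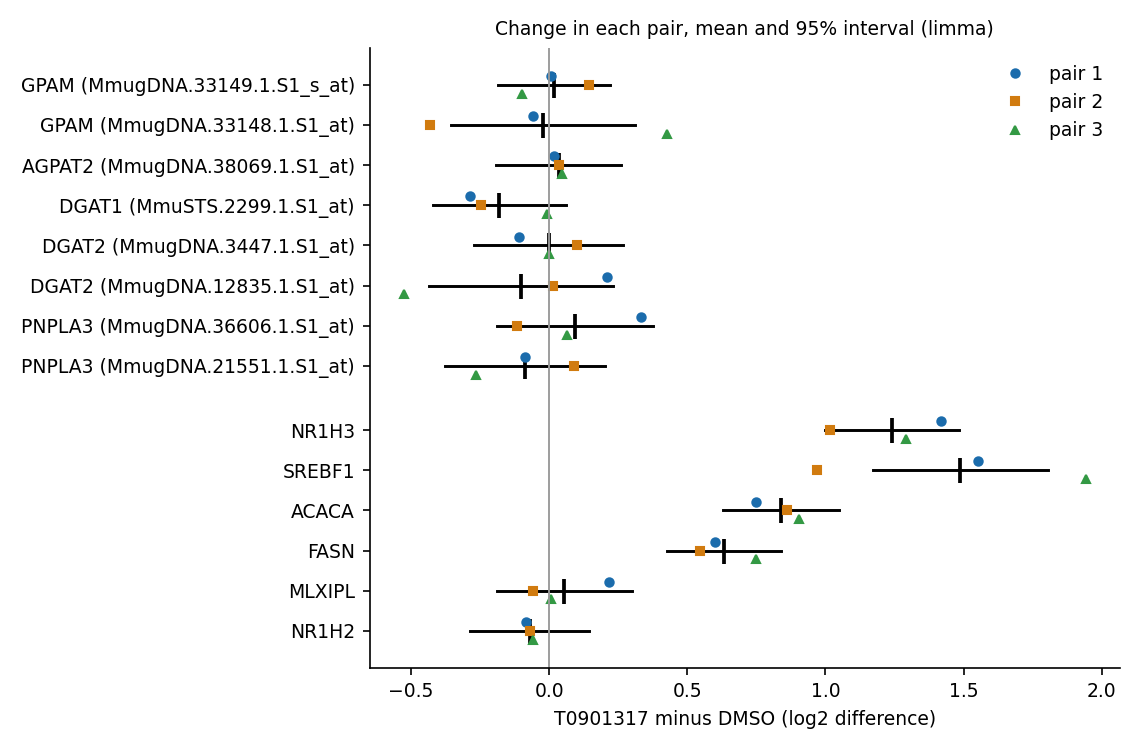
Horizontal axis, log2 difference, T0901317 minus DMSO, for the 8 probe sets of the 5 genes and the representative probe sets of 6 lipid regulators and responders (vertical axis). Symbols are the 3 pairs, ticks the means and bars limma's 95% intervals. All 8 upper bars cross 0, while NR1H3, SREBF1, ACACA and FASN lie at 0.63 to 1.49 with bars that do not reach 0.

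The arrays carried an LXR response over which these values can be read. SREBF1 had levels of 10.1, 10.2 and 9.76 in the T0901317 arrays, against 8.58, 9.20 and 7.82 in the DMSO arrays, so that its lowest treated array was above its highest vehicle array. Its change was 1.49 ± 0.14 (adjusted p = 0.0015, limma), with a 95% interval whose lower bound, 1.17, is above the upper bounds of all 8 member probe sets, at most 0.38. The difference between SREBF1 and the members was not itself tested. Of the other SREBF1 probe sets, one rose by 1.04 ± 0.12 (adjusted p = 0.0070, limma), and the third had 0.23 ± 0.13 with a 95% interval from -0.052 to 0.51 and did not pass (adjusted p = 1.00), an interval that overlaps those of the members. FASN and ACACA, which make the fatty acids that these acyltransferases use, rose by 0.63 and 0.84 (adjusted p = 0.036 and 0.0059). A second ACACA probe set had 0.18 ± 0.12 and did not pass (adjusted p = 1.00, limma). MYLIP, which encodes a ubiquitin ligase of the LDL receptor, rose by 2.39 ± 0.11 (adjusted p = 4.9e-06, limma), and LPCAT3, a lysophospholipid acyltransferase, by 1.07 ± 0.088 (adjusted p = 5.1e-04). Of 13 regulators and known LXR responders, 6 rose, 0 fell and 7 did not pass, with a median change of 0.054. Among all named genes 0.177% passed and the median was -0.021. The list holds genes that earlier results of these data had already shown to rise.

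Of the regulators named beside SREBF1, MLXIPL, SREBF2 and NR1H2 did not pass and NR1H3 did. MLXIPL encodes ChREBP, a glucose-responsive factor of lipid synthesis, and had a change of 0.054 ± 0.11. SREBF2, the factor of cholesterol synthesis, had 0.014 ± 0.11, with 3 other probe sets between -0.16 and 0.059. NR1H2, which encodes LXR beta, had -0.071 ± 0.098, while NR1H3, which encodes LXR alpha, rose by 1.24 (adjusted p = 0.0011).

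The other acyltransferases and phosphatases of the pathway gave the same count as the members. Of 15 measured from 20 listed genes, 0 rose, 0 fell and 15 did not pass, with a median change of -0.032 and a range from -0.087 to 0.22. The further glycerol-3-phosphate acyltransferases GPAT2, GPAT3 and GPAT4 had 0.078 ± 0.12, -0.077 ± 0.092 and -0.034 ± 0.085. AGPAT1 and AGPAT4, which act at the same step as AGPAT2, had -0.032 ± 0.095 and -0.087 ± 0.12. LPIN2 and LPIN3, which make diacylglycerol, had -0.014 ± 0.11 and -0.063 ± 0.090. The largest absolute t values belonged to PLPP3 and GPD1.

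PLPP3, a phosphatase of lipid phosphates at the cell surface, had a change of 0.17 ± 0.086 on its representative and -0.15 to 0.25 on its other 4 probe sets. GPD1 supplies glycerol 3-phosphate. Its level was 6.47, 6.48 and 6.56 in the T0901317 arrays, against 6.24, 6.18 and 6.45 in the DMSO arrays, and these groups did not overlap. Its change was 0.22 ± 0.12 (adjusted p = 1.00, limma), and a second, dimmer probe set had 0.23 ± 0.12 with 4.73, 4.71 and 4.81 in the T0901317 arrays, against 4.54, 4.47 and 4.56 in the DMSO arrays. All 3 pairs lay above 0 on both probe sets of GPD1, and neither passed. Over all probe sets the groups did not overlap for 2.45%, and 23.2% had the same sign in 3 pairs. The 3 DMSO values of the dimmer GPD1 probe set lay below the reference for dim signal of 4.63.

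GPAM was not alone in being lower in replicate 3. PLPP3 had 10.6, 10.5 and 9.70 in the T0901317 arrays, against 10.5, 10.4 and 9.32 in the DMSO arrays. AGPAT1 had 8.21, 8.23 and 7.68 in the T0901317 arrays, against 8.27, 8.24 and 7.70 in the DMSO arrays. GPAT4 had 9.35, 9.46 and 8.85 in the T0901317 arrays, against 9.47, 9.46 and 8.83 in the DMSO arrays. GPAT3 ran differently, with replicate 2 lowest at 8.30 and 8.39 in the T0901317 and DMSO arrays, and 8.71 to 8.99 elsewhere. The means of the replicates spanned 1.04, 0.55, 0.62 and 0.63 log2 units for PLPP3, AGPAT1, GPAT4 and GPAT3, against 1.95 for GPAM.

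Lipolysis, the reverse path, was read through 10 of 15 listed genes. None passed (0 rose, 0 fell), the median change was -0.050 and the range -0.33 to 0.17. PNPLA2, the main triglyceride lipase and a relative of PNPLA3, had levels of 11.2, 10.6 and 11.0 in the T0901317 arrays, against 11.2, 10.6 and 11.0 in the DMSO arrays. Its change was -0.033 ± 0.068, and ABHD5, its activator, had -0.067 ± 0.084. The related PNPLA4 and PNPLA5 had 0.030 ± 0.14 and 0.068 ± 0.11.

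ABHD6, a lipase of monoacylglycerol, was, outside the regulators and responders, the 1 gene of these lists with an unadjusted p under 0.05 (0.019 in limma's fit, adjusted p = 1.00). Its level was 6.94, 6.75 and 6.86 in the T0901317 arrays, against 7.42, 6.80 and 7.32 in the DMSO arrays, and the groups overlapped. The change was -0.33 ± 0.12, with -0.20 ± 0.13 on its second probe set. G0S2, an inhibitor of PNPLA2, had 0.17 ± 0.089, mostly from pair 3 at 0.45.

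The remaining lists gave no call. Of 9 measured genes of lipid droplet coats and formation, 0 rose and 0 fell, with a median of 0.015. The largest absolute t values there were those of AUP1 (-0.082 ± 0.077) and CIDEA (0.13 ± 0.13), and CIDEA lay below the reference for dim signal on average. The coat proteins PLIN3 and PLIN5 had 0.015 ± 0.098 and 0.051 ± 0.12. The 4 genes of export in lipoproteins had a median of -0.037, with SAR1B at -0.035 ± 0.10 and APOB at -0.039 ± 0.12. For the use of diacylglycerol in phospholipids 11 genes were measured, with a median of -0.062, and DGKA (-0.14 ± 0.11) and DGKG (0.14 ± 0.12) had the largest absolute t. Over these 5 lists together 49 of 71 genes were measured, 0 passed, and 1 had an unadjusted p under 0.05 against 3.73% of all named genes. Of the 49, 31 lay below 0, beside 8288 of all 14132 named genes. The median over the 49 was -0.035, and that of all named genes was -0.021.

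**Figure D3:**
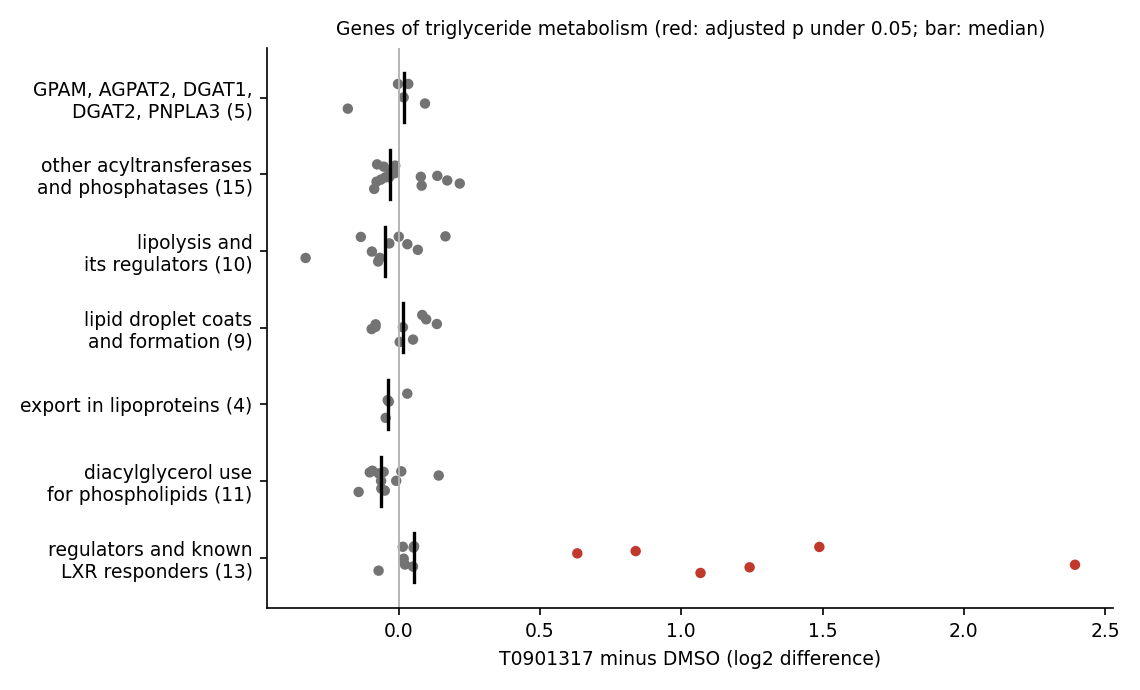
Horizontal axis, log2 difference, T0901317 minus DMSO, for the measured genes of 7 lists (vertical axis, number measured in brackets), 1 point per gene by its representative probe set. Red marks an adjusted p under 0.05 and bars are medians. The 5 members and the 49 other genes of triglyceride metabolism hold no red point, and 6 of the 13 regulators and responders do.

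The range of the 3 replicate means exceeded the absolute change with treatment for 7 of the 8 member probe sets. The exception was the second DGAT2 probe set (0.041 against 0.10). A range of 3 means is above 0 from noise alone, and the share of all probe sets with this order was not counted. By the F test between replicates 3 of the 8 passed, against 40.2% of all probe sets. For DGAT1 the replicate means spanned 0.75 log2 units beside a change of -0.18, and for the brighter PNPLA3 probe set 0.29 beside 0.093. Levels in the vehicle arrays alone varied with SDs of 1.00 and 1.39 on the GPAM probe sets, 0.46 for DGAT1, 0.040 for AGPAT2, and 0.079 to 0.17 on those of DGAT2 and PNPLA3.

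**Figure D4:**
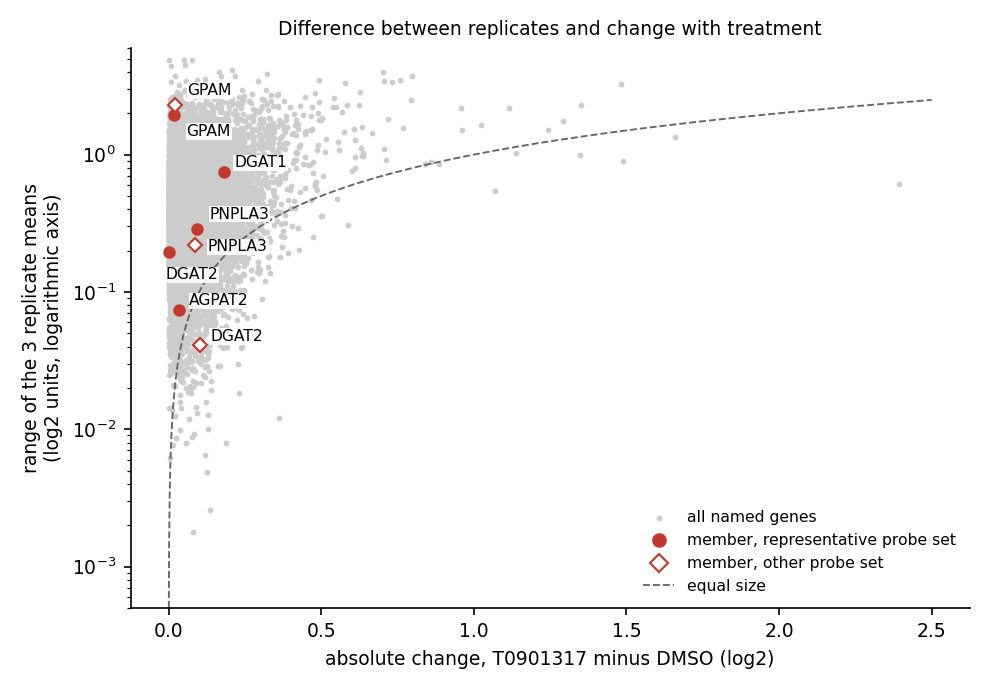
Range of the means of the 3 replicates (vertical axis, log2 units on a logarithmic axis) against the absolute change with T0901317 (horizontal axis, log2) for all 14132 named genes (grey) and the 8 member probe sets (red, filled for the representative). GPAM stands at 1.95 and 2.28 with changes near 0, and the dashed line marks equal size.

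The genes most like each member over the 6 arrays were named by Pearson correlation of level among 11385 candidates. These arrays are 3 pairs, and the representatives of GPAM and DGAT1 differed between replicates, so for them the measure mostly follows the replicates. The representatives of AGPAT2, DGAT2 and PNPLA3 did not pass that test (adjusted p = 0.87, 0.55 and 0.32, limma F). For GPAM the genes were TYMS (r = 1.00), EGLN1 (0.998) and JUNB (0.998). TYMS, an enzyme of thymidylate synthesis, had 8.82, 9.12 and 7.04 in the T0901317 arrays, against 8.82, 9.04 and 7.21 in the DMSO arrays, low in replicate 3 as GPAM was. For DGAT1 they were PCBP4, SHC1 and ARL2BP (each 0.998), and for AGPAT2 GLYR1 (0.997), PIM1 (0.990) and CCND3 (0.988). For DGAT2 they were TMEM87B (0.992), BCDIN3D (0.987) and TBC1D8B (0.986), and for PNPLA3 OR5D14 (0.988), MAT1A (0.986) and TAFA3 (0.986). The 3 highest of 11385 correlations over 6 arrays can be this high by selection alone. The values that unrelated genes would reach were not computed, so the names show no shared regulation. None of these 15 genes passed the test with T0901317, and 0.177% of all named genes did. Their choice by likeness to members that did not pass made this outcome likely, so it adds no information.

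Median log2 levels of the 6 arrays were 5.54 to 5.71, and the share of probe sets above the dim reference was 68.8% to 74.1%. Of 9 listed luteal markers 6 were measured, with a median change of -0.13 (0 passed). All 6 were above that reference on average, but so were 12264 of 14132 named genes and all 4 measured adipocyte markers. Being above it therefore does not establish luteal identity. STAR, which carries cholesterol into mitochondria, had 10.5 to 11.5 over the 6 arrays. CYP19A1 was the dimmest of the 6 markers, at 4.92 to 5.50. With 3 arrays a group, the precision of each value is limited.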

How the data were processed

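Total RNA from 6 cultures was labelled with biotin and read on 1 array each. The deposited values are log2 levels made with RMA, per the submitters' processing notes, with no version named. RMA corrects background, normalizes arrays together and summarises probes. Scanner files and dates were not used here, so no batch could be tested, and no coordinates or sequences are given. Of 52865 probe sets, 99 controls were left out. Gene symbols came from the supplied platform annotation (24956 probe sets with 1 symbol, 361 with several, 27449 with none) and the supplied gene table, which changed 0.

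The probe set of highest mean stood for a gene. T0901317 minus DMSO was fitted with limma 3.58.1 in R 4.3.3 with a block for replicate number and a variance trend on level in eBayes, tested on simulated data. Two-sided p-values were adjusted by Benjamini-Hochberg over 52766 probe sets, with a threshold of 0.05. The pairing comes from the design text. Deviations from group means correlated at 0.658, 0.813 and 0.830 within pairs, and the best match of every array was its own pair. P-values measure the spread of the pair differences in these cultures, moderated by eBayes with the spread of other probe sets. A probe set had 2 residual degrees of freedom before this pooling and a median of 11.4 after it.

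The members and lists were chosen with earlier results of these data known. Genes were named as follows: all members, any gene of a list past the threshold or else the 2 with the largest absolute t, SREBF1, SREBF2, MLXIPL, NR1H3 and NR1H2, and the 3 genes most correlated with each member. GPAT2, GPAT3, GPAT4, AGPAT1, AGPAT4, LPIN2, LPIN3, PNPLA2, PNPLA4, PNPLA5, ABHD5, PLIN3, PLIN5, STAR, CYP19A1, the measured endothelial markers, CNN1, CSPG4, TYROBP, CSF1R, SERPINA1 and the test between replicates were added after values were seen.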

Additional observations from a re-analysis of the deposited data

How the results depend on the processing

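Over 11 alternatives none of the 88 values of the 8 member probe sets passed, and 9 turned sign, all of values from -0.10 to 0.093. The lowest unadjusted p was 0.027, for DGAT1 with the RNA quality covariate. Values that turned under other settings were those of the representative DGAT2 probe set (0.033 with array quality weights), the second DGAT2 probe set (0.064 with the RNA quality covariate) and the dimmer GPAM probe set (0.020 with quantile normalization). GPAM was -0.0019 as the mean of its probe sets and -0.021 by the probe set without an s suffix. Leaving out 1 replicate gave -0.045 to 0.075 and -0.24 to 0.18 on the GPAM probe sets, -0.055 to 0.051 and -0.26 to 0.11 on those of DGAT2, and -0.026 to 0.20 and -0.18 to 0.00060 on those of PNPLA3. AGPAT2 and DGAT1 kept their direction, at 0.027 to 0.058 and -0.27 to -0.13. Without the replicate block 0 probe sets of any gene passed, so the lack of a member call in that fit adds no information.

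Counts over all probe sets depended on the setting, and the cause was not tested. Against 32 higher and 13 lower, the fit without the replicate block gave 0 and 0 (143 at an unadjusted p under 0.05). Without 1 replicate there were 30 to 209 higher and 5 to 119 lower. The trend-free prior gave 10 and 1, and the RNA quality covariate 121 and 85. Lower calls numbered 5 with quantile normalization, 3 with cyclic loess and 29 with array quality weights. The widest 95% interval of a member had a half-width of 0.33 (log2), the precision that 3 pairs gave.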
